A study of Gallus gallus with 2 samples.

Results

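The genes described here are 69 genes whose signal was lower in DAPT-treated than in control chick forebrain on each of 2 array slides, and which lie outside the genes that the study itself tabulated. They were chosen by their measured values. Each gene was represented by its brightest probe, that probe had to pass the scanner software's test for signal clearly over background on each of the 4 arrays of 1 or both conditions, and the DAPT mean had to lie at least 0.5 log2 units (1.41-fold) below the DMSO mean on slide 1 and again on slide 2. Of 10560 genes tested, 71 met these limits, and 69 remained after the tabulated genes HES5 and HEY1 were left out. With the sign turned, 90 genes outside the tabulated ones were higher by the same size on both slides.

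Embryos at stage HH10 were cultured in roller tubes for 16 hours, to about stage HH13, either with dimethyl sulfoxide (DMSO), the solvent, or with 40 µM DAPT, an inhibitor of γ-secretase. The prosencephalon, the front part of the neural tube that holds the hypothalamic primordium and the optic vesicles, was dissected. Whether the tissue lying over it was removed was not given in the sources. RNA from 5 embryos of 1 culture was pooled for each array. There were 4 pools per condition, each on a 1-colour Agilent array. Pools 1 and 2 of both conditions lay on slide 1 and pools 3 and 4 on slide 2. DAPT was added to the culture of whole embryos and was not aimed at any cell type.

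Notch receptors are cut by γ-secretase once a ligand on a neighbouring cell has bound, and the freed intracellular part joins RBPJ to switch on target genes. The best known targets are the HES and HEY repressors, which keep neural progenitors from becoming neurons. γ-Secretase also cuts many other membrane proteins, among them the neuregulin receptor ERBB4. In the ventral forebrain, Sonic hedgehog from the midline induces ventral genes such as NKX2-2.

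All values below are log2 signals after the median of the array was subtracted, and a difference is DAPT minus DMSO, averaged over the slides, unless stated otherwise. The array medians lay between 178 and 354 intensity units. On 7 arrays 74.4% to 80.8% of spots were well above background, against 67.8% on DAPT 2. Of the gene symbols on the array 93.2% passed the filter on dim probes. Of the names written into gene lists, 38 of 45 of a neural progenitor list and 21 of 28 of an optic vesicle list were tested. So were 37 of 44 of a neural crest and mesenchyme list and 14 of 30 of a red blood cell list. A name not tested was either dim or not a symbol on the array. The summed signal of the red blood cell genes was 8.5 to 9.55 on the arrays of slide 1 and 5.49 to 6.61 on those of slide 2.

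Over the 69 genes the median difference was -0.88, a 1.84-fold lower signal with DAPT, and the range was -4.64 to -0.53. The median over all genes tested was -0.01. Of the 69 genes, 23 were lower by 2-fold or more and 4 by 4-fold or more. The 4 were LOC419390, LOC419391, LOC768814 and INHBA. LOC768814 and INHBA were not well above background on DAPT 2, and without DAPT 2 the difference of LOC768814 was -0.47. On slide 1 alone the members' median was -0.75 and on slide 2 it was -0.97, and 52 of the 69 were lower by more on slide 2. These values chose the members and are given as a description. In pooled tissue, fewer cells of a type and less RNA per cell cannot be told apart.

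**Figure D1:**
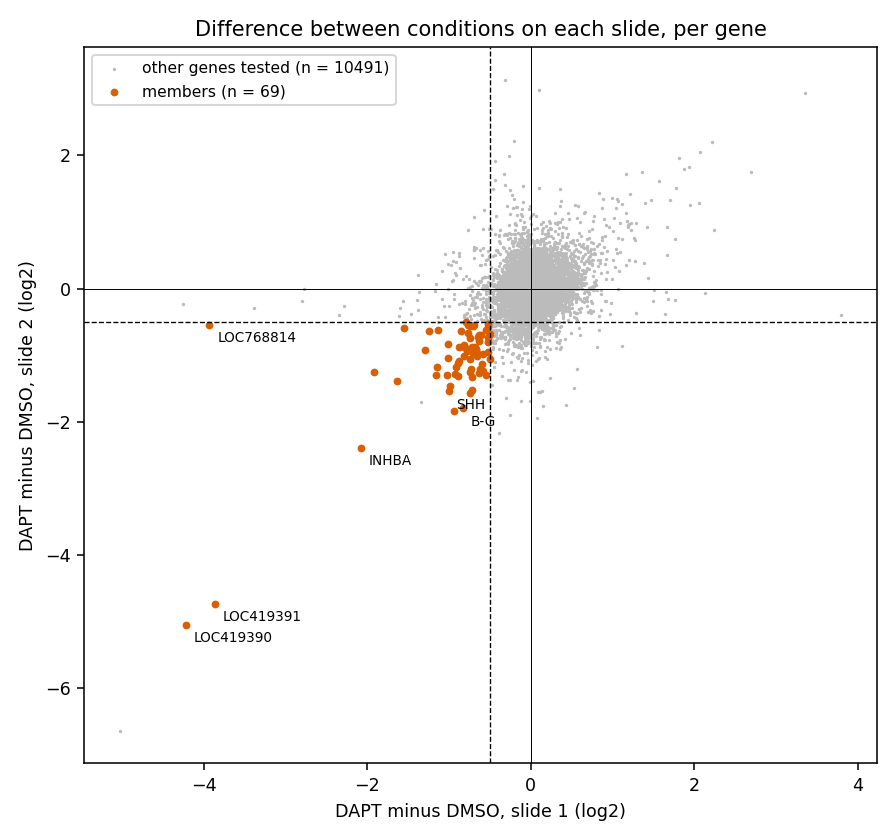
Each point is 1 gene, with DAPT minus DMSO (log2) on slide 1 on the x axis and on slide 2 on the y axis; the dashed lines stand at the limit of -0.5. The 69 members fill the lower left corner by construction, the HES5-like genes LOC419390 and LOC419391 lie far from the rest, LOC768814 was low mainly on slide 1, and the grey points inside the corner are the tabulated genes HES5 and HEY1.

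On slide 1, 229 of the 10560 genes (2.17%) were at or below the limit, and on slide 2, 495 genes (4.69%). The 71 genes that met it on both slides were 31.0% of those of slide 1 and 14.3% of those of slide 2. Of the genes past the limit on slide 1, 61 were higher with DAPT on slide 2, and of those past it on slide 2, 140 were higher with DAPT on slide 1. Just inside the limit stood LOC771705, with -0.80 on slide 1 and -0.50 on slide 2, MOG, with -0.50 and -1.06, and ASB12, with -0.51 and -0.68. Just outside stood FET1, with -1.14 and -0.50, LOC427569, with -0.85 and -0.49, and TNFRSF8, with -0.49 and -1.02.

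In 28 of the 69 genes (40.6%) the highest DAPT value lay under the lowest DMSO value, so that the conditions did not overlap, and 102 of the 10560 genes tested (0.966%) had that order. Both counts rest on the contrast that chose the members. In addition, 33 members passed the filter only through DMSO, the group where they were higher. Some of the 28, such as INHBA, EFCAB6, S1PR1 and PCGF5, are among these 33. Their dim DAPT values are poorly measured, so the lack of overlap is no support for them. Across all genes, limma with Benjamini-Hochberg adjustment called 5 (0.0473%) lower with DAPT. With the slide as a block it called 17 (0.161%), and with array numbers as blocks 24 (0.227%).

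Many members depended on single arrays. With each array left out in turn and the probe kept, 25 of the 69 genes met the limit every time, 44 missed it at least once, and in 18 the mean difference moved by more than 1.5 times. In 8 of these 18 the difference on 1 slide then lay above 0. The values of these 18 are given with each gene below. A gene described without such values may still be among the 44 that missed the limit.

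A run with another background correction changed the sign of many members, mostly dim ones. The signals as deposited had the background subtracted by the scanner software. Limma's normexp correction was run in its place, on the median spot signal. It left an interquartile range of 1.61 on DAPT 2 and 2.02 on DAPT 3, against 3.13 to 4.37 on the other arrays. Which of these changes moved the members was not tested. In that run 31 of the 69 genes had a value above 0, at most 0.66, and 38 stayed below 0. The median of all genes moved to -0.44. LOC419390 (-4.79), LOC419391 (-3.55), PTN (-1.83), SHH (-1.71), NKX2-2 (-1.49), COL3A1 (-1.37), ALDH1A2 (-0.96) and GAL (-0.93) were among those still below the median of all genes. INHBA, at -0.22, and LOC768482, at -0.14, were not.

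The members were mostly dim probes. Their median signal was -1.02 on the scale where the array median is 0, the median over all genes tested was 2.23, and 58 of the 69 lay below the latter. Probe signals do not rank transcripts of different genes. All 69 were well above background on the 4 DMSO arrays, but only 36 were so on all 8 arrays (52.2%, against 93.9% of the genes tested), so that 33 entered through the DMSO arrays. Of these 33, 18 were above background on 3 DAPT arrays, 11 on 2, and 1 on 1. The remaining 3, EFCAB6, TNFSF13B and CDH17, were not well above background on any DAPT array. For them, each DAPT value under the lowest signal well above background on its array was raised to that signal. DAPT 1 of TNFSF13B and CDH17 and DAPT 4 of TNFSF13B lay above it and entered as measured. The fold differences given for these 3 are therefore approximate and are not strict bounds.

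The largest differences belonged to a pair of genes annotated as similar to enhancer of split genes, the family of HES5, a repressor that is a standard readout of Notch activity in the neural tube. LOC419390, similar to an enhancer of split related gene, gave 6.02, 5.82, 5.92 and 6.94 on DMSO 1 to DMSO 4, and 1.61, 1.79, 0.64 and 2.12 on DAPT 1 to DAPT 4. All DMSO arrays lay far above all DAPT arrays. LOC419391, similar to a hairy and enhancer of split gene, gave 4.24, 4.23, 3.66 and 4.16 with DMSO and 0.46, 0.28, -2.02 and 0.37 with DAPT. Here too the groups lay far apart, and DAPT 3 stood well below the other DAPT arrays.

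The differences were -4.64 for LOC419390 and -4.30 for LOC419391, against a spread between pools of 1 condition on 1 slide of 0.64 and 0.87 (SD). All 3 probes of LOC419390 were lower by similar amounts, with differences of -4.22, -4.55 and -4.41 on slide 1 and -5.05, -5.23 and -5.11 on slide 2. Both probes of LOC419391 were lower too, by -3.87 and -3.64 on slide 1 and -4.73 and -4.58 on slide 2. In the RefSeq table of the GRCg7b assembly, LOC419390 lies on chromosome 21 and its span overlaps that of HES5, whose own probe went from 2.42, 2.36, 1.98 and 2.61 with DMSO to a signal well above background on only 1 DAPT array. LOC419391 was not in that table. Whether these probes also bind transcripts of HES5 was not tested.

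**Figure D2:**
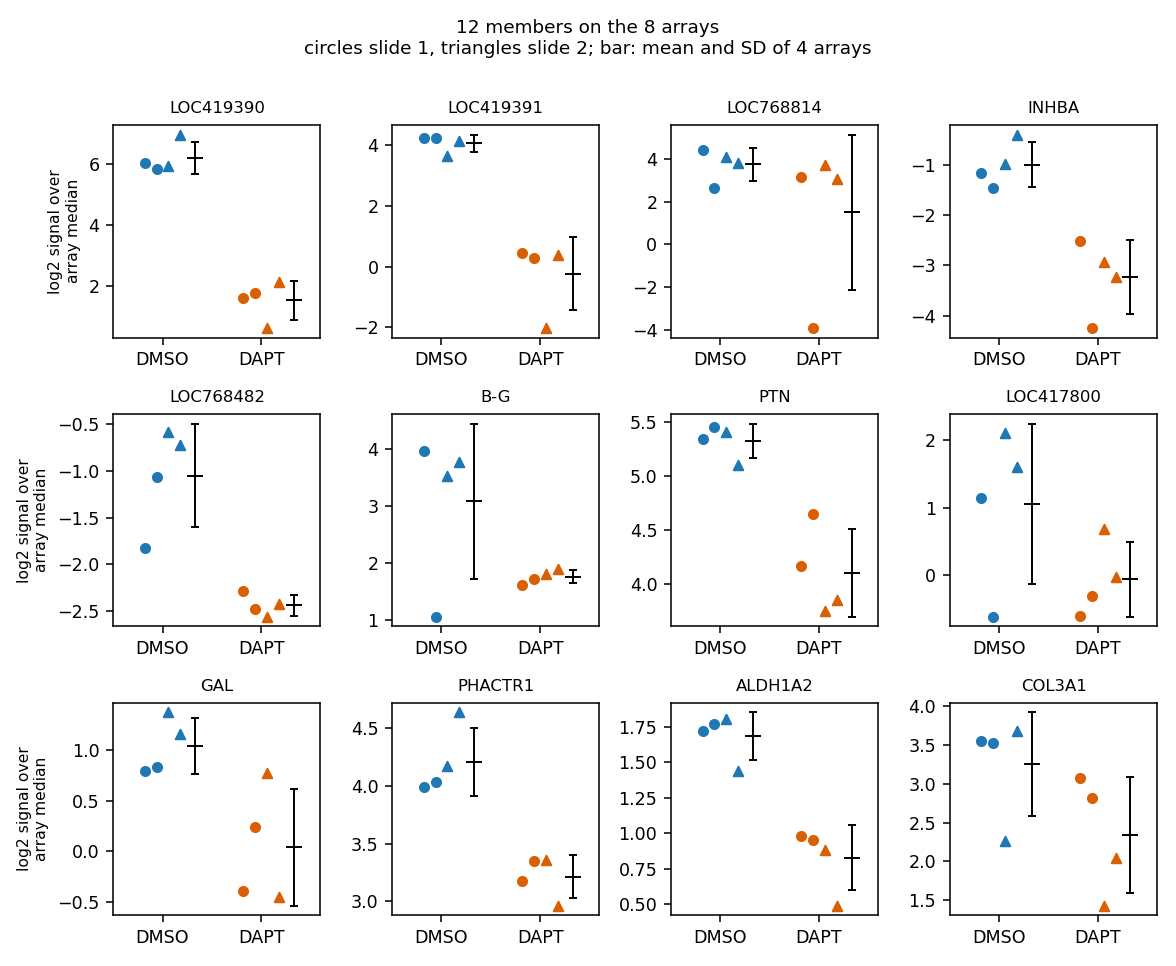
Each panel shows 1 member, with the log2 signal over the array median on the y axis, the 4 DMSO and 4 DAPT arrays as points (circles slide 1, triangles slide 2), and the mean and SD of the 4 arrays as a bar. In LOC419390, LOC419391, INHBA, LOC768482, PTN, GAL, PHACTR1 and ALDH1A2 no DAPT point reached a DMSO point, whereas LOC768814 owed its low DAPT mean to DAPT 2 and the DMSO points of B-G were split by DMSO 2.

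None of the 39 genes tested of a wider Notch list, made without the tabulated genes, was a member. The list was drawn up with ligands, receptors, enzymes and further HES and HEY genes. Of its ligands, receptors, HES and HEY genes, only JAG2 and HES1 were among the genes tested. The others tested were enzymes, cofactors of RBPJ and general regulators such as MYC and ID1. No Notch receptor and no HEY gene of the list was tested. Its median difference was -0.03, 13 genes were lower on both slides and 10 higher on both, and limma called 0 lower and 0 higher (0 lower and 1 higher at an unadjusted p under 0.05), also with the slide or the array number as a block. HES1, a further HES repressor, gave -0.26 on slide 1 and -0.46 on slide 2.

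A group of 3 members were hedgehog ligands or a gene that responds to SHH. Which cells of the dissected tissue expressed them cannot be read from pooled RNA. SHH, the ligand that patterns the ventral neural tube, gave 4.59, 4.75, 3.43 and 4.45 with DMSO and 3.77, 3.56, 2.36 and 2.44 with DAPT. Within each slide both DAPT arrays were below both DMSO arrays, but across slides the groups overlapped, since DMSO 3 lay below DAPT 1 and DAPT 2. NKX2-2, a ventral homeobox gene that responds to SHH, gave 2.70, 3.30, 1.93 and 1.78 with DMSO and 1.65, 2.03, 0.61 and 0.51 with DAPT. IHH, the related ligand Indian hedgehog, gave 1.39, 1.49, 0.44 and 0.56 with DMSO and 0.74, 0.09, -0.62 and -0.99 with DAPT.

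The differences of these 3 genes were close to each other: -1.27 for SHH, -1.23 for NKX2-2 and -1.16 for IHH. The SDs between pools of the same condition and slide were 0.38, 0.26 and 0.27. All 3 were also lower on slide 2 than on slide 1 in both conditions, a contrast that did not choose the members. The limma estimates of slide 2 minus slide 1 were -0.999 ± 0.22 (SE, adjusted p = 0.00512) for SHH, -1.21 ± 0.17 (SE, adjusted p = 0.000485) for NKX2-2 and -1.08 ± 0.17 (SE, adjusted p = 0.00109) for IHH, with n = 4 arrays per slide; with a normexp background correction that of SHH was -0.90 (adjusted p = 0.0783). A further probe of SHH gave a difference of -1.45, and a further, dimmer probe of NKX2-2 gave -0.26. IHH had a single probe, and whether it also binds transcripts of SHH was not tested.

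Other genes of the hedgehog pathway, from a list of signalling genes, were not members. NKX2-1, the ventral forebrain homeobox gene, gave -0.23 on slide 1 and -0.62 on slide 2, and FOXA2, a floor plate gene, gave -0.32 and -0.54. Among the direct readouts of hedgehog signalling, the hedgehog-binding protein HHIP gave -0.70 and -0.25 and the receptor PTCH1 gave -0.46 and -0.15. None of these 4 was called by limma after adjustment, and all 4 had negative values on both slides. In NKX2-1, as in SHH, NKX2-2 and IHH, both DAPT arrays lay under both DMSO arrays on each slide, by less than the limit on slide 1.

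**Figure D3:**
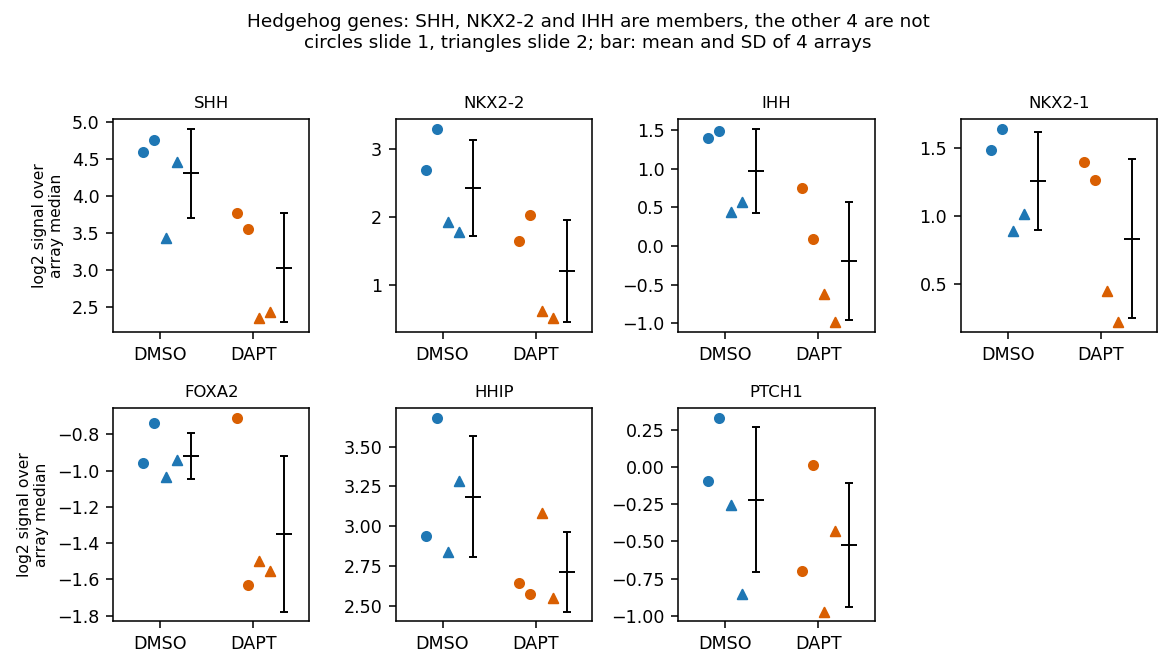
Each panel shows 1 gene of the hedgehog pathway, with the log2 signal over the array median on the y axis and the 4 DMSO and 4 DAPT arrays as points (circles slide 1, triangles slide 2), with the mean and SD of the 4 arrays. In SHH, NKX2-2 and IHH both DAPT arrays lay below both DMSO arrays on each slide, and so they did, by less, in NKX2-1, while in FOXA2, HHIP and PTCH1 the conditions overlapped on at least 1 slide.

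The same signalling list, which also holds Wnt, FGF, BMP and retinoic acid genes, had 62 genes tested, 3 of them members (SHH, NKX2-2 and ALDH1A2). Its median difference was -0.15, and 35 genes were lower on both slides and 15 higher on both, where 28.3% of all genes tested were lower on both and 25.1% higher on both. Limma called 0 of the 62 in either direction (5 lower and 0 higher at an unadjusted p under 0.05). With the slide or the array number as a block it called 3 lower, where 0.161% and 0.227% of all genes tested were called lower. The 3 were the members SHH, NKX2-2 and ALDH1A2. They were chosen on this contrast, so these calls are no test of them. ALDH1A2, which makes retinoic acid from retinaldehyde, gave 1.72, 1.77, 1.81 and 1.43 with DMSO and 0.98, 0.95, 0.88 and 0.49 with DAPT. The groups did not overlap, the difference was -0.86 and the SD between pools was 0.19. All 5 probes of ALDH1A2 were lower on both slides, with mean differences from -1.18 to -0.65.

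Other retinoic acid genes of the list were not members. RARB, a receptor whose gene retinoic acid induces, gave 0.17 on slide 1 and 0.23 on slide 2. DHRS3, a retinaldehyde reductase, gave 0.05 and 0.06. CYP26A1, which degrades retinoic acid, gave -0.25 and -0.01.

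Secreted signals made up 8 members, with differences from -2.23 to -0.63. INHBA, the βA subunit of activin and inhibin, gave -1.15, -1.46, -0.98 and -0.40 with DMSO and -2.52, -4.24, -2.93 and -3.22 with DAPT. DAPT 2 was the lowest array and was not well above background. PTN, the heparin-binding growth factor pleiotrophin, was the brightest member and gave 5.35, 5.45, 5.41 and 5.10 with DMSO and 4.17, 4.65, 3.75 and 3.85 with DAPT. All its DMSO arrays lay above all its DAPT arrays, and the difference was -1.22 with an SD between pools of 0.21.

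All 5 probes of PTN were lower on both slides, and their mean differences ran from -1.33 to -0.73. GAL, the neuropeptide galanin, gave 0.80, 0.83, 1.37 and 1.16 with DMSO and -0.40, 0.24, 0.77 and -0.45 with DAPT, with DAPT 3 just under the lowest DMSO array. IGFBP5, which binds insulin-like growth factors, had a difference of -0.63 without overlap. Its further, dimmer probes gave -0.42 and -0.17. TNFSF13B, the B-cell survival factor BAFF, was about 1.92-fold lower with DAPT after its dimmest DAPT values were raised to the lowest signal well above background.

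In the remaining secreted factors the groups overlapped. LOC417800, a prolactin-like protein that RefSeq names PRLL, gave 1.15, -0.61, 2.11 and 1.59 with DMSO and -0.60, -0.30, 0.69 and -0.03 with DAPT. DMSO 2 was the lowest of the 8 arrays, and without DMSO 1 the difference was 0.16 on slide 1 and -0.68 over both slides. FGL1, a fibrinogen-like secreted protein, had a difference of -0.88. LOC770154, which RefSeq names APELA and which in zebrafish is a ligand of the apelin receptor, had one of -0.84.

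Receptors and channels made up 9 members, with differences from -1.15 to -0.65, and only 3 of them were well above background on all 8 arrays. S1PR1, a receptor for sphingosine-1-phosphate, gave -1.97, -2.05, -2.21 and -2.16 with DMSO and -2.70, -2.81, -4.28 and -3.21 with DAPT. The groups did not overlap, and 2 of the DAPT arrays were above background. The potassium channel KCNH5 (-0.98) had no overlap either. ERBB4, the neuregulin receptor, gave 1.53, 1.22, 1.92 and 2.33 with DMSO and 0.62, 0.78, 1.46 and 0.94 with DAPT, with DAPT 3 above DMSO 2.

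FLT1, a VEGF receptor of blood vessel cells, gave 0.87, 1.13, 1.1 and 1.74 with DMSO and 0.32, 0.18, 0.64 and 0.72 with DAPT. The groups did not overlap, and all 3 probes of FLT1 were lower on both slides. FLT1 was the only member among the 25 genes tested of an endothelial list, whose median difference was 0.19, with 6 genes lower and 11 higher on both slides and 0 called in either direction (1 lower and 3 higher at an unadjusted p under 0.05), or 0 lower and 1 higher with the slide or the array number as a block. The summed signal of that list was 6.47 to 7.06 with DMSO and 6.72 to 7.21 with DAPT. The related receptor KDR gave 0.71 on slide 1 and -0.08 on slide 2.

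Further members of this group were the dopamine receptor DRD1 (-0.72), the nicotinic receptor subunit CHRNA4 (-0.65), the calcium release channel RYR3 (-0.66) and the T-cell receptor partner CD28 (-0.81). Each had overlapping groups, and in CD28 and RYR3 the lowest array was DAPT 4, at -4.25 and -4.26. Without DAPT 4 the difference of CD28 was -0.41, and that of RYR3 was -0.08, with 0.62 on slide 2. Without DAPT 3 that of RYR3 was -1.24. Without DAPT 2, the lowest array of DRD1, its difference was -0.37.

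Transcription and chromatin factors made up 5 members. PCGF5, a ring finger protein of polycomb complexes, had the smallest spread of all members: it gave -1.48, -1.52, -0.92 and -1.15 with DMSO and -2.25, -2.23, -2.09 and -2.10 with DAPT, and the SD between pools was 0.08 against a difference of -0.90. It rested on 1 probe and was not well above background on DAPT 2. With the normexp correction its difference was 0.23. ZNF438, a zinc finger protein, was the other factor without overlap, with a difference of -0.92. BCL11B (-1.02), a zinc finger repressor, MSC (-0.88), the bHLH repressor musculin, and IKZF2 (-0.67), the zinc finger factor Helios, had overlapping groups. Without DAPT 2 the difference of IKZF2 was -0.44.

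Intracellular adaptors, regulators of small GTPases and scaffold proteins made up 12 members, with differences from -1.11 to -0.59. PHACTR1, a regulator of protein phosphatase 1 and actin, was among the 6 brightest members and gave 3.99, 4.04, 4.17 and 4.64 with DMSO and 3.18, 3.35, 3.36 and 2.96 with DAPT, a difference of -0.998 with an SD between pools of 0.23. Others without overlap were ELMOD1 (-0.97), which acts on Arf-family GTPases, SYBU (-0.85), a kinesin linker, CCDC85C (-0.78) and LOC421901 (-0.80). A further probe of SYBU, of nearly the same signal, gave -0.30. RAC2 (-1.11), a small GTPase of blood cells, overlapped only through DAPT 1.

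The remaining members of that group were LOC771535 (-0.94), SNTG2 (-0.92), DOK6 (-0.85), NUP210 (-0.84), RASGEF1A (-0.71) and ASB12 (-0.59). LOC771535, similar to a regulator of G-protein signalling, varied more between pools than between conditions: it gave -1.66, -1.94, -3.17 and -2.40 with DMSO and -1.71, -4.38, -4.76 and -2.09 with DAPT. Without DAPT 2 or without DAPT 3 its difference was -0.28, with values above 0 on that slide, and without DAPT 1 or without DAPT 4 it was -1.61. NUP210, a nuclear pore protein, had a further, slightly dimmer probe that gave 0.01 on slide 1 and -0.07 on slide 2. Without DAPT 3 the difference of NUP210 was -0.53 and that of SYBU was -0.55. ASB12 was at -0.13 without DAPT 2, with 0.42 on slide 1, and at -1.06 without DAPT 1.

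Enzymes made up 8 members. LOC768482, which RefSeq names NIM1K, a protein kinase, lies on chromosome Z and gave -1.83, -1.07, -0.58 and -0.72 with DMSO and -2.29, -2.48, -2.56 and -2.43 with DAPT. The DAPT arrays lay close together, below all DMSO arrays. LOC771574 (-1.11), which RefSeq names PLA2G4EL2, a phospholipase A2 relative, PRSS35 (-0.78), a serine protease relative, UPP1 (-0.63), uridine phosphorylase, and CDK6 (-0.55), a cell cycle kinase of G1 phase, had overlapping groups. So did DPEP1 (-0.92), a dipeptidase, and GFOD1 (-0.86), whose DMSO 3 value was 0.42 against -2.29 to -2.01 on the other DMSO arrays. Without DMSO 3 the difference of GFOD1 was 0.23 on slide 2 and -0.18 over both slides, and without DMSO 4 it was -1.54. A further, dimmer probe of GFOD1 gave -0.33 on all arrays. DPEP1 was at -0.61 without DAPT 1, with 0.08 on slide 1, and at -0.58 without DMSO 4. UPP1 was at -0.38 without DMSO 4.

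Genes placed among matrix and adhesion genes after the members were known made up 11, none of them in the separate list of 64 matrix and adhesion genes. LIMS1, a focal adhesion adaptor and among the brightest members, gave 4.06, 3.83, 3.90 and 3.88 with DMSO and 3.03, 3.14, 3.46 and 3.05 with DAPT. All 4 probes of LIMS1 were lower on both slides, but the further ones gave only -0.14, -0.12 and -0.43 on slide 2 and missed the limit. CHL1 (-0.69), a cell adhesion molecule of the L1 family, and CLEC3B (-0.58), tetranectin, were the others without overlap. SPON1, F-spondin, a secreted protein of the floor plate, was also among the brightest and had the smallest difference of all members (-0.53): it gave 3.41, 3.48, 4.21 and 3.70 with DMSO and 3.03, 2.81, 3.61 and 3.24 with DAPT.

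COL3A1, the fibrillar collagen III of connective tissue, gave 3.54, 3.53, 2.26 and 3.68 with DMSO and 3.07, 2.82, 1.43 and 2.04 with DAPT. DMSO 3 was low, under DAPT 1 and DAPT 2, and without DMSO 4 the difference was -0.56. Of its 9 probes 7 were lower on both slides. COL3A1 was the only member among the 37 genes tested of the neural crest and mesenchyme list, whose median difference was 0.05 and whose summed signal was 8.93 to 9.20 with DMSO and 8.87 to 9.46 with DAPT. COL1A1 gave 0.33 on slide 1 and -0.25 on slide 2. Limma called 0 of the 37 genes (0 at an unadjusted p under 0.05), also with either block.

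The other members of the matrix group had overlapping groups. They were the protease ADAMTS8 (-1.1), the laminin chain LAMB4 (-1.03), ZPLD1 (-0.83), MOG (-0.78), the collagen IV chain COL4A4 (-0.62) and the cadherin CDH17. With its dimmest DAPT values raised to the lowest signal well above background, CDH17 was about 1.5-fold lower with DAPT. Without DMSO 4 the difference of ZPLD1 was 0.03 on slide 2 and -0.39 over both slides, without DAPT 3 it was -0.48, and without DMSO 3 it was -1.26.

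In a W-linked gene and a gene of the major histocompatibility complex, 1 array stood far from the others of its condition. LOC768814, similar to Wpkci, belongs to the HINTW genes of the female-specific W chromosome. It gave 4.44, 2.66, 4.09 and 3.79 with DMSO and 3.16, -3.92, 3.74 and 3.06 with DAPT, and DAPT 2 alone was not well above background. Without DAPT 2 the difference was -0.39 on slide 1 and -0.54 on slide 2, and the gene no longer met the limit. Without DAPT 1 the difference was -4.01. The 6 probes of HINTW itself, a gene that was not a member, had a median of 8.07 to 9.20 on the other 7 arrays and of 1.86 on DAPT 2, with the lowest probe at -1.30. FET1, a female expressed transcript just outside the limit, gave -2.11 on DAPT 2 and -0.96 to 0.96 on the others. The sex of the pooled embryos was not given in the sources used here.

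B-G, an antigen of the chicken major histocompatibility complex, gave 3.97, 1.06, 3.53 and 3.77 with DMSO and 1.62, 1.73, 1.81 and 1.90 with DAPT. DMSO 2 was lower than every DAPT array. Without DMSO 2 the difference was -2.29 on slide 1 and -1.80 on slide 2. Without DMSO 1 it was 0.61 on slide 1 and -0.59 over both slides. Of the 13 probes with this symbol 9 were lower on both slides. B-G genes form a family of near-identical copies, so which copy each probe read is uncertain.

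Members with no settled role numbered 9. C5H11orf96, which RefSeq names C11orf96, gave 4.08, 3.91, 3.58 and 3.98 with DMSO and 3.26, 3.45, 2.39 and 2.64 with DAPT, and all 3 of its probes were lower on both slides. Others without overlap were LOC768569 (-1.08), LOC421238 (-1.04), LOC416599 (-0.66) and EFCAB6. With its dim DAPT values raised to the lowest signal well above background, EFCAB6 was about 1.53-fold lower with DAPT. C1orf100 gave -1.18, -1.62, -2.59 and -2.52 with DMSO and -2.68, -2.41, -3.08 and -4.39 with DAPT, with DAPT 2 above DMSO 3 and DMSO 4, a difference of -1.16. ANKRD22 (-0.74) and LOC771705 (-0.65) also overlapped, as did LOC769094 (-0.66), which was well above background on only 1 DAPT array, so that its difference is poorly measured. Without DAPT 2 the difference of LOC771705 was -0.41 and that of LOC769094 was -0.38.

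**Figure D4:**
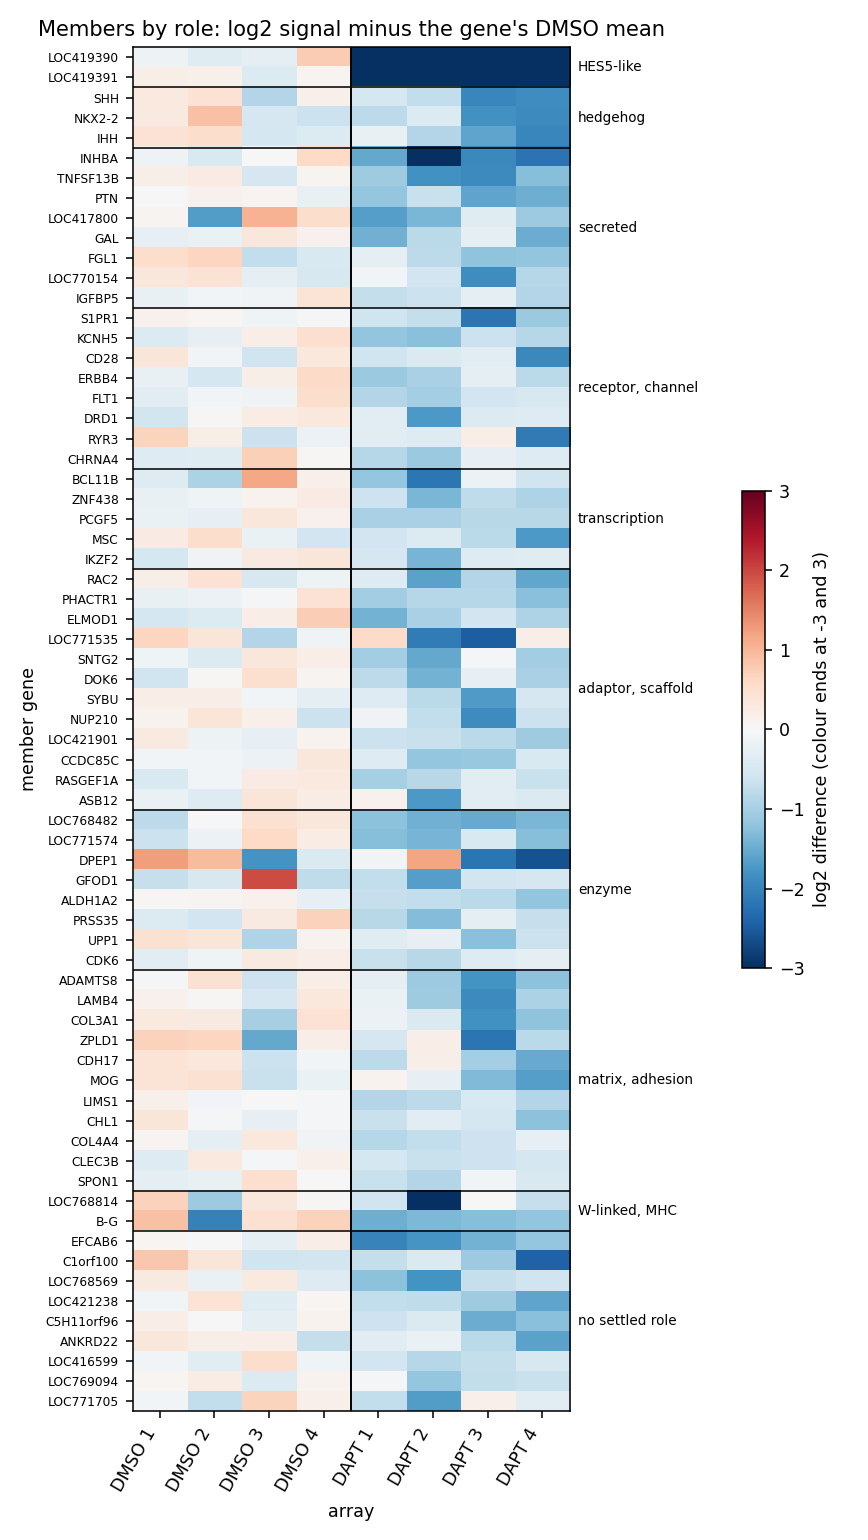
Rows are 68 of the 69 members grouped by role, columns the 8 arrays, and colour is the log2 signal minus the gene's mean over the DMSO arrays, ending at -3 and 3. The DAPT columns are blue in nearly all rows, deepest in the HES5-like pair, while single dark or red cells mark LOC768814 on DAPT 2, B-G on DMSO 2 and GFOD1 on DMSO 3.

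The members also differed in which array was lowest. DAPT 2 was the lowest array in 24 members, DAPT 3 in 18, DAPT 4 in 18, DAPT 1 in 7 and DMSO 2 in 2. The lowest signal well above background was -2.14 on DAPT 2, against -3.55 to -3.33 on the other DAPT arrays. Values of DAPT 2 under it, as in INHBA, BCL11B, IKZF2 and ASB12, were not well above background and are poorly measured. Over all genes tested DAPT 2 was the lowest in 9.54%, DAPT 3 in 9.34%, DAPT 4 in 10.4% and DAPT 1 in 25.6%. Measured from each gene's DMSO mean, the members' median was -0.70 on DAPT 1, -0.88 on DAPT 2, -0.82 on DAPT 3 and -1.0 on DAPT 4. Without DAPT 2 the same limits found 75 genes, and 47 of the 69 were among them.

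The spread between pools of 1 condition on 1 slide was compared with the difference that chose the members. Its median over the members was 0.38 (SD), against 0.22 over all genes tested, and it ran from 0.08 in PCGF5 to 2.59 in LOC768814. The difference with DAPT was larger than this SD in 64 members and larger than 2 such SDs in 45; over all genes tested the absolute difference was so in 20.2% and 5.45%, but the limit itself favoured large differences. The 5 in which it was not were LOC768814, LOC771535, GFOD1, RYR3 and ASB12. Between the pools the median absolute difference over the members was 0.21 for DMSO 1 and DMSO 2, 0.43 for DMSO 3 and DMSO 4, 0.30 for DAPT 1 and DAPT 2, and 0.41 for DAPT 3 and DAPT 4.

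**Figure D5:**
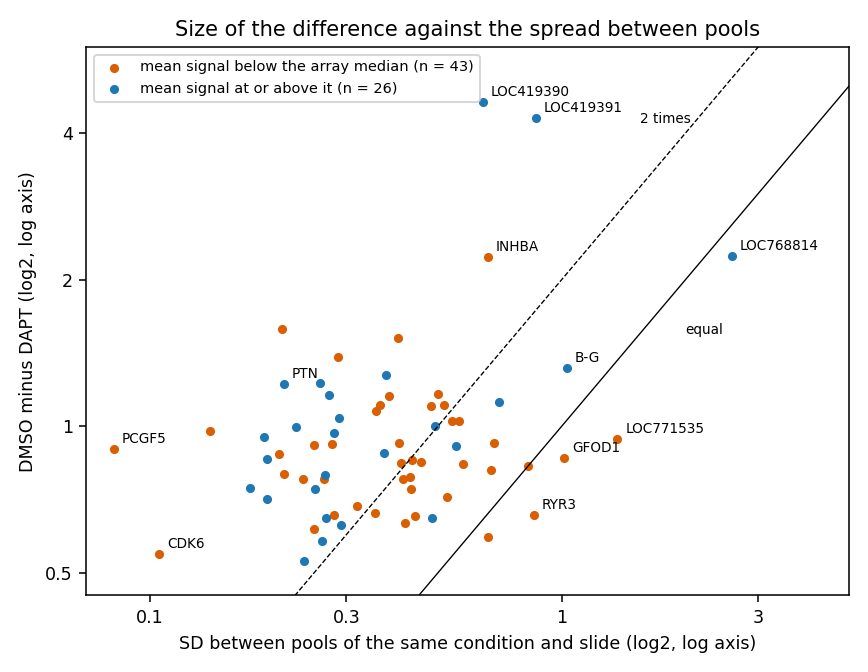
Each point is 1 member, with the SD between pools of the same condition and slide on the x axis and DMSO minus DAPT on the y axis, both in log2 units on log axes; the lines mark equality and 2 times the SD. Most members lie above the equality line, and LOC768814, LOC771535, GFOD1, RYR3 and ASB12 lie below it. LOC419390 and LOC419391 have the largest differences and PCGF5 has the smallest SD.

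Slide 2 against slide 1 is a contrast independent of the choice of members, since each slide held 2 arrays of each condition. Of the 69 members, 29 (42.0%) passed limma's test of it, 14 higher and 15 lower on slide 2, where 40% of all genes tested passed. The members' share was therefore near the background. The median of all genes was 0.19 higher on slide 2, and the direction of calls depended on the scaling: with the 75th percentile of each array in place of its median, that median was -0.06 and the members' calls were 2 higher and 22 lower.

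Relative to slide 1, the members lowest on slide 2 were DPEP1, ZPLD1 and NKX2-2. DPEP1 gave 0.02 and -0.29 on the DMSO arrays of slide 1 and -3.03 and -1.66 on those of slide 2, and -1.31 and -0.05 against -3.44 and -3.85 with DAPT, a slide difference of -2.59 ± 0.34 (SE, limma adjusted p = 0.000388). ZPLD1 gave -0.50, -0.54, -2.72 and -0.98 with DMSO and -1.70, -0.98, -3.38 and -1.99 with DAPT. Its slide difference was -1.34 ± 0.38 (SE, limma adjusted p = 0.0169). These 3 genes stayed lower and past the threshold with the 75th percentile and with quantile normalization. With a normexp background correction only NKX2-2 did.

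Relative to slide 1, the members highest on slide 2 were LOC768814, BCL11B and LOC417800. BCL11B gave -1.81, -2.37, -0.26 and -1.28 with DMSO and -2.60, -3.60, -1.60 and -2.02 with DAPT, the arrays of slide 2 being the higher in each condition. BCL11B was higher on slide 2 by 1.3 ± 0.27 (SE, limma adjusted p = 0.004) and LOC417800 by 1.18 ± 0.35 (SE, limma adjusted p = 0.021), the latter with an adjusted p of 0.0777 under the 75th percentile, and both above 0.05 with normexp. LOC768814 was higher by 2.08 ± 1.24 (SE, limma adjusted p = 0.199) and did not pass.

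The members had 69 further probes on the array, in 34 of the genes. Of these, 46 probes in 25 genes passed the filter on dim probes. Of the 46, 41 were lower on both slides and 29 were themselves at or below the limit. Of all 69 further probes, 55 were lower on both slides, where 28.3% of all genes tested were. These are probes of genes already chosen and are not independent of them. The remaining 35 members rested on a single probe.

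Only 5 of the 69 members (SHH, NKX2-2, ALDH1A2, FLT1 and COL3A1) belonged to any of 15 lists of cell types and pathways. The lists of red blood cells, mural cells, ectoderm and placodes, optic vesicle, neural progenitors, neurons, cell cycle, hypoxia and glycolysis, cholesterol and lipids, stress and early response, and matrix and adhesion had no member, and limma called 0 of their genes lower after adjustment (7 at an unadjusted p under 0.05, in the ectoderm, optic vesicle, progenitor and matrix lists), also with either block. The neuronal list was the one with the highest median difference, 0.48 over 23 genes tested, with 18 higher on both slides and 1 called higher, or 6 with either block. The median was -0.07 for the 38 neural progenitor genes and -0.07 for the 37 cell cycle genes.

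Among the RefSeq genes, 60 of the 69 members had an entry and 9 had none. Chromosome 2 held 13 members, chromosome 1 held 10, chromosome 5 held 8 and chromosome 7 held 6. ERBB4 and IKZF2 were direct neighbours on chromosome 7. GFOD1 and PHACTR1 were 3 genes apart on chromosome 2, and BCL11B and CCDC85C were 4 genes apart on chromosome 5.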

How the data were processed

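Chick forebrain RNA was hybridised to 8 one-colour arrays, 4 per condition, each a pool of embryos from the same culture. The paper names 4 sets of experiments. Whether a DMSO and a DAPT pool of the same number shared an experiment is not stated there. Per the file headers, Agilent Feature Extraction 10.7.1.1 made the deposited intensity values by subtracting background from each spot. The authors also deposited their mean raw intensity and mean log2 normalized signal per condition, from GeneSpring GX 12 with a 50th percentile shift, in 4 columns that gave no value here. A further deposited list holds the authors' fold changes and was not used. No column of single samples was left unused (0).

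Here the processed intensity was averaged over spots of a probe, put on the log2 scale and reduced by the array's median. Of 43603 probes, 31504 passed the filter, and 21973 of these had a gene symbol from the deposited annotation (10560 genes). Limma 3.58.1 in R 4.3.3 tested all 31504 probes with an adjusted p threshold of 0.05. For the DAPT contrast the fit gave the background share and the counts of calls over all probes and per gene list. It is no test of the members, since that contrast chose them. The fit was tested on simulated data. Microarrays have no read depth, so their number limits the precision.

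Array numbers are shared between conditions. Deviations from the group means correlated between arrays of the same number with r of 0.496 to 0.762, but the other array of the same slide gave 0.411 to 0.672, so the shared part includes the slide.

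The members and lists were chosen with earlier results of these data known, and roles were assigned afterwards. Genes described in full were the 12 lowest members, the 6 brightest, those in a list, those nearest the limit and those with the largest slide difference; all others named were chosen after their values were seen. Alternatives were the 75th percentile, quantile normalization, normexp with offset 50, other filters and probe rules, a floor, blocks, and leaving out each array. Normexp was run on the median spot signal. It was chosen after seeing the data, as were the rule counting any probe, leaving out arrays with the probe kept and the blocks counted per list. Some genes, 1 member among them, are not reported here. Sequences and promoter motifs were not analysed here.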

Additional observations from a re-analysis of the deposited data

Results flagged for a closer look

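In each of the 69 genes the highest and lowest array of either condition was compared with its 3 fellows, and 12 of 138 sets of 4 arrays had an array that stood apart by Dixon's test, where chance gives about 1 in 20. The share was 8.70% over the members and 3.66% over all genes tested. An outlying DMSO array was found in 6 members (8.70%, against 3.72% of all genes tested). An outlying DAPT array was found in 6 members (8.70%, against 3.61%). The members were chosen on these same values, and the cause of the outlying arrays was not tested. Low arrays were LOC419391 on DMSO 3 (3.66) and on DAPT 3 (-2.02), LOC768814 on DAPT 2 (-3.92), B-G on DMSO 2 (1.06), COL3A1 on DMSO 3 (2.26), CD28 on DAPT 4 (-4.25), ANKRD22 on DMSO 4 (-0.69), and DRD1 (-3.14) and IKZF2 (-3.51) on DAPT 2. High arrays were LOC771574 on DAPT 3 (-0.68), GFOD1 on DMSO 3 (0.42) and CCDC85C on DMSO 4 (-0.80).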

How the results depend on the processing

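The limits found 69 genes, and 54 to 103 with the 75th percentile, quantile normalization, outlier spots left out, a signal floor, no filter on dim probes or the mean over probes. They found 36 with the filter on all 8 arrays, 105 when any probe could meet them and 2762 with normexp, which moved the median of all genes to -0.44. With 1 array left out they found 69 to 105, the latter without DAPT 3. The members' median of -0.88 was -0.14 with normexp. The 28 members without overlap became 18 with normexp, where 12.1% of all genes tested had no overlap, and 15 with the filter on all 8 arrays, where 0.816% had none.

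Limma called 12 probes lower with DAPT, 37 with the slide as a block and 58 with the array number as a replicate block, and 6 to 15 with 1 array left out: 6 without DMSO 1, DMSO 3, DAPT 2 or DAPT 4, 7 without DMSO 4 or DAPT 1. Between slides it called 12945 probes (8326 higher and 4619 lower on slide 2), 10437 with the 75th percentile (3675 higher and 6762 lower), 11215 with quantile normalization, 11301 with a random replicate block and 2059 with normexp.

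With normexp 31 members had values above 0, among them these 30: EFCAB6 (0.39), TNFSF13B (0.43), C1orf100 (0.36), S1PR1 (0.30), RAC2 (0.45), ADAMTS8 (0.33), LOC768569 (0.22), BCL11B (0.0457), LOC771535 (0.57), SNTG2 (0.41), DPEP1 (0.0882), PCGF5 (0.23), FGL1 (0.32), GFOD1 (0.12), DOK6 (0.38), SYBU (0.47), ZPLD1 (0.0679), CD28 (0.54), LOC421901 (0.35), CDH17 (0.50), CCDC85C (0.12), PRSS35 (0.0355), MOG (0.25), DRD1 (0.28), IKZF2 (0.33), LOC416599 (0.43), RYR3 (0.50), LOC769094 (0.66), UPP1 (0.0344) and ASB12 (0.50). After that correction the interquartile range was 1.61 on DAPT 2 and 2.02 on DAPT 3, against 3.13 to 4.37 on the others. NUP210 ran from -1.15 to 0.27 with 1 array left out; without DAPT 1 its other probe was the brighter and was the one read. Of the single members' other values, 1008 moved by less than the spread between pools and 31 by more.

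Normexp on the mean spot signal was not run. Dim probes limit the result: 33 members were not well above background on 1 or more DAPT arrays.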
